A study of Homo sapiens with 6 samples.

Results

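The extracellular matrix genes described here are 10 genes that encode fibronectin (FN1), the matricellular proteins tenascin C (TNC), thrombospondins 1 and 2 (THBS1, THBS2), SPARC, periostin (POSTN) and TGFBI, and the elastic fiber proteins elastin (ELN), fibrillin-1 (FBN1) and fibulin-5 (FBLN5). They were chosen by name, as 10 of 41497 named entries, with earlier results of these data known. Each has 1 entry on a primary chromosome and none on alternate contigs. Transcripts were counted in HK-2 cells, an immortalized human line from the renal proximal tubule with genotype WT. The cells were labeled as control in 3 libraries or were exposed to TGF-β1 in 3 libraries, all for 24 hours. All cells were of this 1 line, maintained, per the labels, in DMEM-F12 medium that held fetal bovine serum and antibiotics. For experiments with TGF-β in general, the study's methods describe treatment without serum, and doses there differ between assays, whereas the labels name no dose for the sequenced cells. Nothing says whether the libraries came from separate cultures, so p-values measure only the spread between these samples, which may be technical. The comparison asks how this profibrotic cytokine changes the transcripts of the tubular cell.

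Fibronectin is a large secreted glycoprotein that cells assemble into fibrils by pulling on integrins, and those fibrils serve as a template on which other matrix proteins are laid down. Matricellular proteins are secreted into the matrix but do not build its frame, and they tune how cells attach, migrate and respond to growth factors. Elastic fibers have a core of cross-linked elastin on a scaffold of fibrillin microfibrils, with fibulins as linkers, and microfibrils also hold latent TGF-β in store. In the kidney, fibronectin and TGFBI are widely used readouts of the TGF-β response of tubular cells, and matricellular proteins are known for their reappearance in injured and fibrotic tissue.

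The 6 libraries held 21938622 to 26906067 counts. Genes were tested with the edgeR quasi-likelihood test across 14860 genes, with Benjamini-Hochberg adjusted p-values. The threshold for a call was an adjusted p of 0.05, and CPM values are counts scaled by TMM (trimmed mean of M values) to a library of 1e+06. TGF-β1 replicate 1 stood apart from the other TGF-β1 libraries in a way that followed gene length. Its log2 CPM minus the mean of the other TGF-β1 libraries had a median of 0.12 over 2695 tested genes of up to 2 kb and -0.17 over 2609 genes over 8 kb, whereas the medians of the control libraries in these length classes lay between -0.04 and 0.04. Of 10 proximal tubule markers, 3 averaged at least 1 CPM, and LRP2 and HNF4A each had at most 3 reads in all libraries together. That list summed to 309 to 343 CPM in control and 193 to 225 CPM after TGF-β1, where PAX8 and GGT1 were called lower. AQP1 had 5, 7 and 16 reads in control and 56, 28 and 39 after TGF-β1. For CUBN these were 13, 10 and 11 against 23, 18 and 20 reads. Both passed the count filter only through their TGF-β1 libraries, where they are high, so their calls as higher are not counted. Epithelial markers summed to 808 to 868 CPM in control and 1054 to 1213 CPM after TGF-β1, but they were divided. KRT8 and KRT18 were called higher at 1.57-fold and 1.5-fold, whereas KRT19 and EPCAM were called lower at 0.395-fold and 0.419-fold. Fibroblast markers summed to 59.8 to 69.2 CPM in control and 56.8 to 58.1 CPM after TGF-β1, with PDGFRB called higher and LUM lower. THY1 had 23, 22 and 18 reads in control and 8, 4 and 7 after TGF-β1. It passed the count filter only through its control libraries, so its call as lower is not counted. COL1A2 had no more than 3 reads in all. Endothelial markers summed to 0.858 to 1.6 CPM in control and at most 0.0384 CPM after TGF-β1, and KDR was at or under that number of reads. Leukocyte markers summed to 92.0 to 102 and 60.9 to 84.5 CPM, nearly all of it CD68, with CD3E as low as KDR. The part of these shifts in the results was not tested.

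Members with a called increase were led by TGFBI at 5.04-fold, with FN1 at 1.97-fold, while THBS2 was lower at 0.689-fold and TNC was not called. Of the 10 members, 8 passed the count filter. FBLN5 passed only through its TGF-β1 libraries, where it is high, so it had to differ and is left out of the counts that follow. Of the other 7, 5 were called higher (TGFBI, FN1, SPARC, FBN1 and THBS1), 1 was called lower (THBS2) and 1 was not called (TNC). Over all genes tested, 44.3% were called, 22.2% higher and 22.1% lower. Only TGFBI among these 7 was called at 2-fold or more, and FN1 was just under that limit, where 3.68% of all genes tested were called higher and 5.38% lower. The groups did not overlap in 6 of the 7, in the directions of their calls, whereas 55.6% of all genes tested had no overlap, 27.9% higher and 27.7% lower. The median log2 fold change of the 7 was 0.65, beside 0.0063 for all genes tested.

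To show the DNA in front of members that moved in different directions, the stretch upstream of the start is printed for FN1, TGFBI and THBS1, which were higher after TGF-β1, and for THBS2, which was lower. The sequences are those of RefSeq on GRCh38.p14, read 5′ to 3′ on the strand of the gene, and the table used had a row for 9 of the 10 members. Each ends at the base before the start, which for FN1 is the more distal start of the deposited tables, so that 99 bases are left out. Capitals mark matches, on either strand, to the letters of a SMAD CAGA box (CAGACA), a palindromic SMAD element (GTCTAGAC), an AP-1 site (TGACTCA), a cyclic AMP response element (TGACGTCA), a TATA box (TATAAA) or a GC box (GGGCGG).
FN1 (chr2:215436168-215436318, minus strand): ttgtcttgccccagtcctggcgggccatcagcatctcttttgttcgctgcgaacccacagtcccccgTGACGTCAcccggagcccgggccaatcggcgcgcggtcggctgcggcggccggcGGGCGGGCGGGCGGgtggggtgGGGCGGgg
TGFBI (chr5:136028738-136028987, plus strand): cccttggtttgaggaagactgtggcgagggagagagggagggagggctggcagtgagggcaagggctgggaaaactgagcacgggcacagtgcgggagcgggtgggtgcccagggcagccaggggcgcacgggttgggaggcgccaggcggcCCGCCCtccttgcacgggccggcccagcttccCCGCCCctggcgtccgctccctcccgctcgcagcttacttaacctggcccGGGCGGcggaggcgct
THBS1 (chr15:39580829-39581078, plus strand): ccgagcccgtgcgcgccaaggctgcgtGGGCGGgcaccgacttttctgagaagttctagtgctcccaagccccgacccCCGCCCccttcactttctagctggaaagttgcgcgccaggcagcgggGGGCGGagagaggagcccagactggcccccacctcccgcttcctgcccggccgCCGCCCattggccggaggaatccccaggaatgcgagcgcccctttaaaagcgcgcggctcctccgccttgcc
THBS2 (chr6:169253847-169254096, minus strand): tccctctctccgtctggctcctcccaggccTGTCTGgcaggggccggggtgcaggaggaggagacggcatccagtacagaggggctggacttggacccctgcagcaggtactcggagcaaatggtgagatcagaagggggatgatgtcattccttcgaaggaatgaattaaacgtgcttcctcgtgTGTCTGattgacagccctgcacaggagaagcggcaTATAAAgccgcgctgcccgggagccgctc

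In the 250 bases upstream of each RefSeq start, GC boxes were the only matches for TGFBI, with 3, and for THBS1, with 4. A GC box was present in 42.6% of 35116 windows of the same length over all promoters. FN1 had 6 GC boxes, some overlapping, and a cyclic AMP response element whose first base lay 183 bases upstream, letters that 1.65% of all windows hold. These positions count from the RefSeq start. The GC boxes at 102 and 49 bases upstream fall in or reach into the bases left out of the printed stretch. THBS2 had a TATA box 29 bases upstream, which 10.7% of windows hold, and 2 matches to the SMAD CAGA box at 220 and 64 bases upstream. The CAGA box was found in 2 of the 9 members with a row (THBS2 and TNC) and in 13.6% of all windows, and the palindromic SMAD element in 0 of the 9 and in 0.182% of all. GC boxes were found in 5 of the 9 and TATA boxes in 3 of the 9. AP-1 letters (4.2% of windows) were found for POSTN only among these members. These matches are descriptions of letters, and the absence of one in this window says nothing about binding of a factor.

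FN1 (gene-FN1, GRCh38 chromosome 2, 215360862 to 215436167, minus strand) was the member with the most counts in every library. It had 16049, 15682 and 16213 CPM in control and 28211, 33494 and 32903 CPM after TGF-β1. All 3 TGF-β1 libraries were above all 3 control libraries, and TGF-β1 replicate 1 was the lowest of its group. FN1 rose 1.97-fold, with a log2 fold change of 0.98 ± 0.08 (SE), a 95% interval of the fold from 1.76 to 2.22 and an edgeR adjusted p of 1.8e-06. In bulk samples, more cells with a transcript and more transcript per cell cannot be told apart. Without TGF-β1 replicate 1 the log2 fold change was 1.04. An antisense entry inside FN1, LOC112268430, had reads that came to 0.0751% to 0.108% of those of FN1, and without strand the reads of such a pair cannot be told apart. The counts are per gene, so splice forms of fibronectin with and without the extra domains were not separated.

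TGFBI (gene-TGFBI, chromosome 5, 136028988 to 136063818, plus strand), a secreted adhesion protein named for its induction by TGF-β, had the largest fold change among the tested members. It had 1708, 1700 and 1708 CPM in control and 8997, 8416 and 8391 CPM after TGF-β1. The groups were far apart, and the control libraries had an SD of 4.72 CPM around a mean of 1705 (n = 3). TGFBI rose 5.04-fold, with a log2 fold change of 2.33 ± 0.06 (SE), a 95% interval of the fold from 4.60 to 5.53 and an edgeR adjusted p of 6.5e-10. Without TGF-β1 replicate 1 TGFBI stood at 2.29. The opposite-strand entry LOC105379189 shares 46 bases with the first part of TGFBI. It had 4 reads in each control library and 51, 43 and 45 after TGF-β1, at most 0.0256% of the reads of TGFBI. Periostin is the paralog of TGFBI, and it was close to absent. For POSTN (gene-POSTN, chromosome 13, 37562585 to 37598839, minus strand), 1 read was found in control replicate 2, none in the other control libraries, and 1 in each TGF-β1 library. Both groups were at or under 3 reads, so no fold change is given, and POSTN did not pass the count filter. An exact conditional test of the reads gave a two-sided p of 0.625, and an exact permutation test of its CPM gave 0.2. With so few reads the conditional test could give no p under 0.0613, so it could not show a difference.

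SPARC (gene-SPARC, chromosome 5, 151661096 to 151686915, minus strand), a matricellular collagen-binding protein, rose with a small spread. It had 1261, 1282 and 1187 CPM in control and 2296, 2240 and 2193 CPM after TGF-β1, with no overlap. Its log2 fold change was 0.85 ± 0.06 (SE), or 1.80-fold with a 95% interval from 1.66 to 1.97 (edgeR adjusted p 5.4e-07). The value without TGF-β1 replicate 1 was 0.82.

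**Figure D1:**
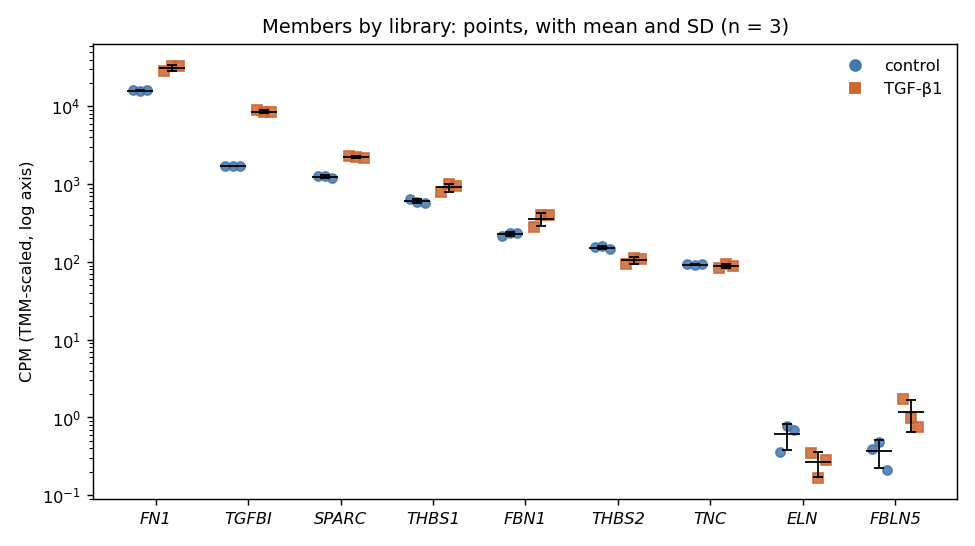
CPM on a log axis for 9 of the 10 members in each control library (circles) and each TGF-β1 library (squares), with the mean and SD of each group (n = 3). TGFBI goes from a mean of 1705 to 8391 CPM or more, THBS2 lies lower in all 3 TGF-β1 libraries, the groups of TNC overlap, and POSTN, with 4 reads in all, is not drawn.

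The thrombospondins, secreted trimers that bind cells, proteases and growth factors, moved in opposite directions. THBS1 (gene-THBS1, chromosome 15, 39581079 to 39599466, plus strand), which encodes a known activator of latent TGF-β, had 648, 597 and 574 CPM in control and 793, 1002 and 935 CPM after TGF-β1. All TGF-β1 libraries were higher, and the log2 fold change was 0.59 ± 0.09 (SE, edgeR adjusted p 3.0e-04). THBS2 (gene-THBS2, chromosome 6, 169215785 to 169253846, minus strand) had 154, 160 and 145 CPM in control and 93.7, 114 and 109 CPM after TGF-β1. All TGF-β1 libraries were lower, and the log2 fold change was -0.54 ± 0.07 (SE, edgeR adjusted p 1.7e-04).

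The balance of this pair was then taken within each library, where it does not depend on scaling between libraries. TPM is the count per gene length, scaled to the same total in each library, and the ratio of the TPM of THBS1 to that of THBS2 was 3.84, 3.42 and 3.62 in control against 7.74, 8.06 and 7.84 after TGF-β1. The ratio after TGF-β1 was 2.17 times that of control, a log2 difference of 1.12 with SDs of 0.0840 in control and 0.0298 after TGF-β1 (n = 3 each). Because THBS1 was higher and THBS2 lower in every TGF-β1 library, the ratios had to separate, so the ratio restates both changes and is given with no test. TGF-β1 replicate 1, where both genes were lowest within their group, had the ratio of 7.74. For THBS2 the antisense entry LOC101929523 held 0.353% to 0.744% of the reads of the gene, and in THBS1 the opposite-strand gene FSIP1 shares 2186 bases and held 0.0823% to 0.230%.

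TNC (gene-TNC, chromosome 9, 115019575 to 115118244, minus strand), a hexameric glycoprotein of wound and developing matrix, was not called. It had 92.9, 90.3 and 92.9 CPM in control and 83.2, 94.0 and 88.5 CPM after TGF-β1, so the groups overlapped. The log2 fold change was -0.06 ± 0.06 (SE), with a 95% interval of the fold from 0.880 to 1.05 and an edgeR adjusted p of 0.473. Without TGF-β1 replicate 1 the value was -0.02. With total counts only, where the median of all tested genes shifts by -0.11, TNC was called lower at -0.16 (edgeR adjusted p 0.0364).

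FBN1 (gene-FBN1, chromosome 15, 48408313 to 48645709, minus strand), the main protein of microfibrils, had 215, 237 and 237 CPM in control and 283, 400 and 398 CPM after TGF-β1. All TGF-β1 libraries were higher, but the spread after TGF-β1 was wide, with an SD of 67.3 CPM around a mean of 361 (n = 3). The log2 fold change was 0.65 ± 0.14 (SE, edgeR adjusted p 0.00887), and without TGF-β1 replicate 1 it was 0.79. FBN1 has the longest transcript of the members, at 11609 bases.

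The linker gene FBLN5 (gene-FBLN5, chromosome 14, 91869411 to 91947694, minus strand) was near the limit of the count filter. Its reads numbered 9, 12 and 5 in the control libraries against 45, 24 and 16 after TGF-β1, or 0.399, 0.491 and 0.213 CPM against 1.73, 0.993 and 0.764 CPM. The groups did not overlap. The log2 fold change was 1.66 ± 0.39 (SE, edgeR adjusted p 0.00558), and it was 1.24 without TGF-β1 replicate 1. Its passage through the filter, given above, rests on the TGF-β1 libraries. ELN (gene-ELN, chromosome 7, 74027772 to 74069907, plus strand), which encodes the elastic core itself, did not pass the filter. Its reads numbered 8, 19 and 16 in the control libraries against 9, 4 and 6 after TGF-β1. Scaled to CPM the groups did not overlap, but the lowest control library, at 0.354 CPM, was close to the highest TGF-β1 library, at 0.346 CPM. The read ratio of TGF-β1 to control was 0.438, with a 95% exact interval from 0.241 to 0.767, an exact conditional p of 0.00214 over these libraries and an exact permutation p of its CPM of 0.1. This interval and the conditional p use reads summed over the libraries of each group, so they leave out the spread between libraries. The sources used here do not say whether PCR copies were marked, so even the counting error may be larger. When genes with any read were kept in the edgeR model, ELN was called lower at -1.16 (adjusted p 0.0305). The antisense entry ELN-AS1 lies inside ELN, with 10, 11 and 10 reads in the control libraries against 22, 15 and 15 after TGF-β1, which is 57.9% to 375% of the reads of ELN, so the split between the genes of this pair is uncertain.

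**Figure D2:**
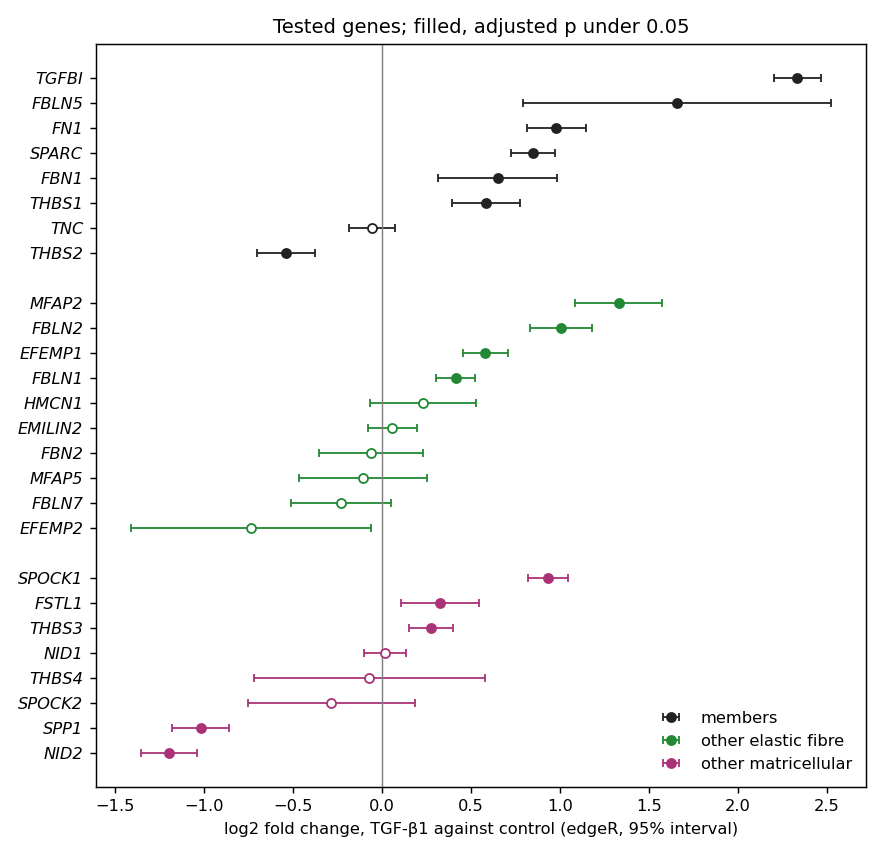
Log2 fold change of TGF-β1 against control from edgeR, with 95% intervals, for the tested members and the tested genes of the lists of other elastic fiber and other matricellular genes. Filled points have an adjusted p under 0.05; among members TGFBI lies at 2.33 and THBS2 at -0.54, and the wide interval of FBLN5 goes with at most 45 reads in a library.

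Levels were compared between genes by TPM, which accounts for gene length. In control the order was FN1 with a mean of 6051 ± 179 TPM, TGFBI with 2093 ± 39.2, SPARC with 1199 ± 33.8 and THBS1 with 259 ± 11.8 (SD, n = 3). THBS2 (69.1 to 74.5 TPM) and FBN1 (60.6 to 69.2 TPM) came next and overlapped, followed by TNC at 32.5 to 34.1 TPM. FBLN5 and ELN lay between 0.216 and 0.642 TPM and overlapped, with POSTN at the end. After TGF-β1, FN1 had 9527, 11937 and 11590 TPM and TGFBI had 9848, 9723 and 9581 TPM, so these genes overlapped and TGFBI was the higher in TGF-β1 replicate 1. Among all named entries, TGFBI moved from TPM rank 54, 50 and 47 in control to rank 2, 3 and 3, and FN1 from rank 5, 5 and 4 to rank 4, 1 and 1. SPARC reached 1993 ± 36.2 TPM with ranks from 50 to 57, against 102 to 105 in control. FBN1, at 72.3 to 108 TPM, was then above THBS2, at 39.0 to 50.02 TPM, in every TGF-β1 library.

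The ratio of TGFBI to FN1 in TPM was 0.345, 0.351 and 0.341 in control against 1.03, 0.814 and 0.827 after TGF-β1. This ratio was chosen after its values were seen and is given with no test. The ratio of FN1 to FBN1, the scaffolds of fibronectin fibrils and of microfibrils, was 98.5, 87.5 and 90.4 in control against 132, 110 and 109 after TGF-β1. It was higher in all 3 TGF-β1 libraries by a mean log2 difference of 0.34, with SDs of 0.0889 in control and 0.152 after TGF-β1, at a two-sided exact permutation p of 0.1, the smallest that 3 libraries against 3 can give. Without TGF-β1 replicate 1 the difference was 0.25.

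**Figure D3:**
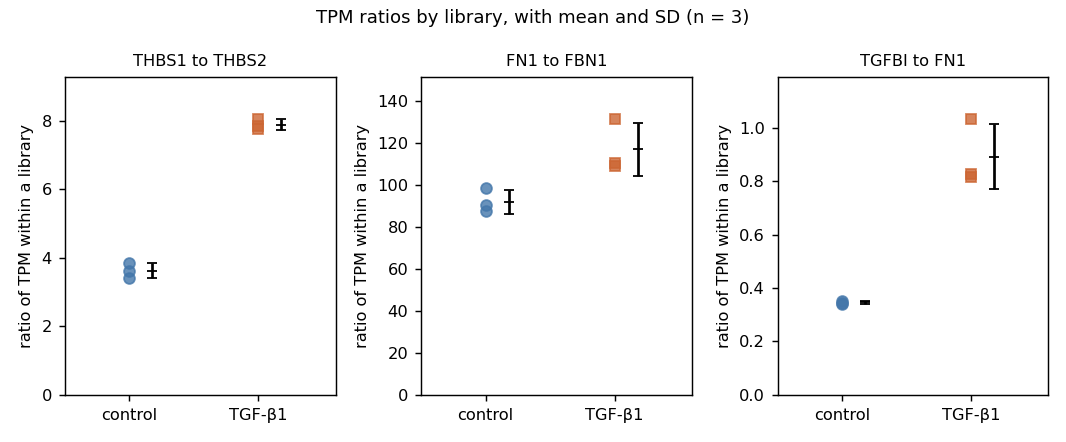
Ratios of TPM within each library for THBS1 to THBS2, FN1 to FBN1 and TGFBI to FN1, with control as circles, TGF-β1 as squares and the mean and SD beside them (n = 3); all axes start at 0. Each ratio is higher in all 3 TGF-β1 libraries, and that of THBS1 to THBS2 lies between 7.74 and 8.06.

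The members together held 2.07%, 2.05% and 2.11% of the counts of named genes in control and 3.96%, 4.39% and 4.31% after TGF-β1. The share was higher by 2.15 percentage points, from 2.08% ± 0.0292 to 4.22% ± 0.230 (SD, n = 3). FN1 by itself held at least 2.74% in every TGF-β1 library, above the highest control total of 2.11%. The summed share therefore had to separate, so it is given with no test. FN1 alone went from 1.66% ± 0.0342 to 3.04% ± 0.257 and TGFBI from 0.177% ± 0.00147 to 0.829% ± 0.0395. FN1 and TGFBI made up 94.6% of this difference.

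**Figure D4:**
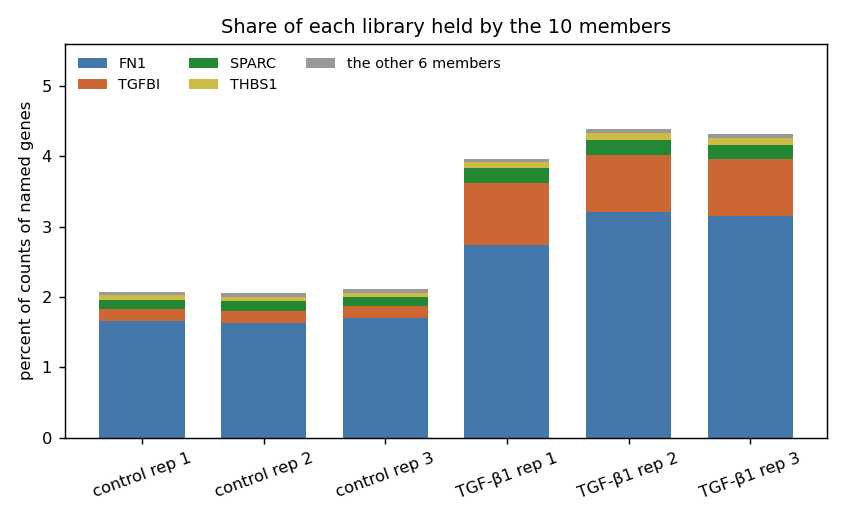
Percent of the counts of named genes held by the members in each library, stacked by gene, with the y axis from 0. Control libraries total 2.05% to 2.11% and TGF-β1 libraries 3.96% to 4.39%, and FN1 and TGFBI carry most of the difference.

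The members differed from each other in how the TGF-β1 libraries were ordered. TGF-β1 replicate 1 was the lowest of its group for 5 tested members, FN1, TNC, THBS1, THBS2 and FBN1, which have lengths of 7122 to 11609 bases. It was the highest for the other 3, SPARC, TGFBI and FBLN5, with lengths of 2712 to 3451 bases. Its log2 CPM minus the mean of the other TGF-β1 libraries was -0.50 for FBN1, -0.29 for THBS1, -0.25 for THBS2, -0.23 for FN1 and -0.13 for TNC, against 0.05 for SPARC and 0.10 for TGFBI. The part of this length pattern in the fold changes was not tested, and the log2 fold changes without this library stand beside the genes above, apart from -0.47 for THBS2 and 0.66 for THBS1.

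**Figure D5:**
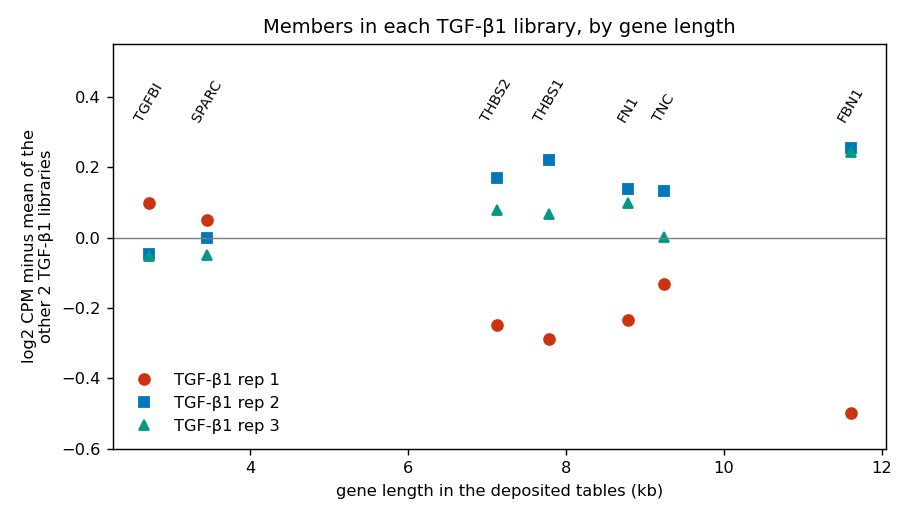
Log2 CPM of each tested member apart from FBLN5 in each TGF-β1 library, minus the mean of the other TGF-β1 libraries, against gene length in kb. Replicate 1 lies above 0 for TGFBI and SPARC and below 0 for the 5 members of 7122 bases or more, down to -0.50 for FBN1.

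Other genes of the elastic fiber were examined as a list of 14, of which 10 passed the count filter. Beside 22.2% of all genes tested called higher and 22.1% lower, 4 of these were called higher and 0 lower. At an unadjusted p under 0.05, 1 was lower by edgeR, 1 by limma-voom and 0 by DESeq2. By edgeR it was EFEMP2, named after its values were seen. Neither of the other tools called any gene of the list lower after adjustment. EFEMP2 had 21, 19 and 16 reads in control and 12, 15 and 7 after TGF-β1. It passed the count filter only through its control libraries, where it is high, so this unadjusted result is not counted. MFAP2, a microfibril protein, had 34.8, 37.0 and 34.2 CPM in control and 105, 82.2 and 79.0 CPM after TGF-β1. Its log2 fold change was 1.33 ± 0.11 (SE). This value was 1.18 without TGF-β1 replicate 1, which deviated by 0.39 for this gene of 1115 bases. FBLN2, a fibulin, rose by 1.01 ± 0.08, from 13.7 ± 1.28 to 27.6 ± 1.03 CPM (SD, n = 3). The fibulin genes EFEMP1 and FBLN1 rose by 0.58 ± 0.06 and 0.42 ± 0.05. The microfibril gene FBN2, the paralog of FBN1 and likewise singled out with its values known, had 197, 194 and 196 CPM in control and 149, 213 and 201 CPM after TGF-β1, with overlap, and was not called (log2 fold change -0.06, edgeR adjusted p 0.726). Without TGF-β1 replicate 1, which deviated by -0.47 for this gene of 10927 bases, the FBN2 value was 0.07 and was again not called. The median log2 fold change of the 10 tested genes was 0.15. HMCN1, a fibulin family member also singled out after its values were seen, was called without TGF-β1 replicate 1 at 0.38 (edgeR adjusted p 0.00265) and not with it at 0.23, and its length is 18375 bases.

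Other matricellular and related matrix genes formed a list of 18, of which 8 passed the filter. Beside 22.2% of all genes tested called higher and 22.1% lower, 3 of these were called higher and 2 lower. Their median log2 fold change was -0.03 over those tested. SPOCK1, a SPARC family proteoglycan, had 311, 304 and 307 CPM in control and 579, 606 and 579 CPM after TGF-β1, a log2 fold change of 0.93 ± 0.05 (SE). FSTL1, another SPARC relative, and THBS3 rose by 0.33 ± 0.10 and 0.28 ± 0.06. The call of FSTL1 was lost by DESeq2, with total counts only, and without control replicate 1 or 2 or TGF-β1 replicate 2 or 3, at adjusted p values from 0.0586 to 0.0965. SPP1, which encodes osteopontin, an adhesive phosphoprotein of injured tubules, had 432, 437 and 425 CPM in control and 238, 197 and 204 CPM after TGF-β1, a log2 fold change of -1.02 ± 0.07. NID2, which encodes the basement membrane linker nidogen-2, fell by 1.20 ± 0.07 on the log2 scale, from 32.1 ± 1.6 to 14.02 ± 0.757 CPM (SD, n = 3), whereas its paralog NID1, singled out after its values were seen, was not called at 0.02 with a 95% interval of the fold from 0.933 to 1.10. The adjusted p was 9.2e-07 for SPP1 and 2.1e-07 for NID2 by edgeR.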

How the data were processed

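Poly(A) RNA of 3 control and 3 TGF-β1 HK-2 libraries was converted with random hexamers and sequenced as paired-end reads on an MGI platform. Reads with adapters or of low quality were filtered out by the authors. Their processing notes name featureCounts 2.0.1, DESeq2 1.16.1 and the hg38 build; the aligner is not given in the sources used here. The deposited tables give raw counts, TPM and FPKM per gene, with a gene length, and TPM recomputed from counts and length differed from the deposited TPM by at most 3.6e-06. The deposited FPKM values were not used in any test. Records broken over lines, 7 in each of the deposited files, were rejoined. The 598 unnamed entries, 0.396% to 0.464% of counts, were left out of library sizes and tests.

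All 41497 named entries entered edgeR 4.0.16 in R 4.3.3 (filterByExpr with a minimum count of 10, TMM, robust quasi-likelihood F test, two-sided). The standard error was the log2 fold change divided by the square root of F. Alternatives used DESeq2 1.42.0, limma-voom (limma 3.58.1), other scaling, other filters, a block on the replicate number and the omission of each library in turn. The test code was checked on data simulated from these libraries. Permutation tests, ratios and intervals used Python 3.11.15 and scipy 1.17.1.

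The genes and lists, and the naming rule, were chosen with earlier results of these data known. The rule named all 10 members and, from each of the other lists, up to 4 called genes per direction by size of fold change. A planned ratio of TGFBI to POSTN was left out because POSTN had 0 reads in some libraries. Promoter sequences came from RefSeq (GRCh38.p14).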

Additional observations from a re-analysis of the deposited data

How the results depend on the processing

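For the 17 genes followed through the alternatives (the 8 tested members and 9 called genes of the other lists), 213 of 220 values had the direction and the call of the report, and no call turned direction. The exceptions were TNC with total counts only and FSTL1. Part of this agreement was built in, because the 9 were taken for their calls in the main fit and FBLN5 had to differ. Genes outside this tally did move. HMCN1 was called and FBN2 changed sign without TGF-β1 replicate 1. EFEMP2 was called with total counts only, but its passage through the filter rests on its control libraries. The members called higher, FBLN5 included, numbered 6 in each alternative that kept FBLN5; the limit of a mean of at least 50 counts left out FBLN5, and 5 were called there. The 1 member called lower became 2 with total counts only (TNC) and 2 when genes with any read were kept (ELN), and ranged from 1 to 2 when a library was left out. ELN was the added gene there, called without control replicate 1 or TGF-β1 replicate 1. It was tested but not called without TGF-β1 replicate 2 (adjusted p 0.136) or 3 (adjusted p 0.0744), and in each of these fits it passed the filter only through its control libraries, where it is high. Other elastic fiber genes called lower went from 0 to 1 with total counts only (EFEMP2, -0.84). Because EFEMP2 passed the filter only through its control libraries, where it is high, that call is not counted as a result. Other matricellular genes called higher went from 3 to 5 when genes with any read were kept, where COMP and SPARCL1 were added. COMP had 1, 0 and 0 reads in control and 8, 4 and 3 after TGF-β1. For SPARCL1 these were 0, 1 and 3 against 8, 12 and 3 reads. Neither gene passed the main count filter, and such low reads limit these calls. EFEMP2, COMP and SPARCL1 are named after their values were seen. Over all genes, 3294 were called higher and 3288 lower, or 50.05% higher, against 2134 and 4590, or 31.7% higher, with total counts only.

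The deviations of libraries with the same replicate number correlated at 0.11, -0.01 and 0.08, so the numbers were not taken as pairs. With the replicate block, 6 members were again called higher and 1 lower. The 6 include FBLN5, which had to differ. Over all genes 3396 were higher and 3394 lower with this block. With a library left out, the difference in summed share ranged from 2.06 to 2.28 percentage points. Depth limits what can be said of POSTN, ELN, FBLN5, EFEMP2, COMP and SPARCL1. A ratio of TGFBI to POSTN was not run. The causes of the changed calls were not tested.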
